A study of Mus musculus with 2 samples.

Results

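Venous endothelial cells that carry P-selectin (Selp) together with Lrg1, Tll1 or Nr2f2 were taken from 2 single-cell RNA libraries of the mouse abdominal aorta by their unique molecular identifier (UMI) counts. A UMI is 1 captured RNA molecule. A cell was a member when it held at least 2 UMIs of Pecam1, Cdh5 and Egfl7 together, at least 2 of Selp and at least 1 of Lrg1, Tll1 and Nr2f2 together. It also had to hold 0 UMIs of the capillary gene Gpihbp1, at most 1 of the arterial genes Gja5 and Bmx, at most 1 of the lymphatic genes Prox1 and Mmrn1, at most 1 of the leukocyte gene Ptprc and at most 5 of the fibroblast gene Dcn. Of 35848 cells past the cell filter, 354 were members, 93 of 11288 in the Control library and 261 of 24560 in the AngII+HS library.

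The study compared aortas of mice given normal saline (Control) with aortas of mice that received angiotensin II from an osmotic minipump at 1500 ng per kg per min and drank water with 0.9% NaCl and 0.2% KCl (AngII+HS), both taken at day 28. Per the study's methods, the mice of both groups were male C57BL/6J, 5 months old. Each group was 1 library. The design text gives tissue of 5 mice pooled for a library, while the extraction protocol names 1 control mouse and 2 AngII plus salt mice, so the number of animals behind each library is uncertain.

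With 1 library per group, no test between the groups was possible. Intervals are 95% intervals and cover counting error only, not the spread between mice. They are exact, except for those of differences between cell types, which rest on a normal approximation. The list of cell barcodes recorded with each library has the length of the other library's matrix, 24804 barcodes against 11448 matrix columns for Control and 11448 against 24804 for AngII+HS. The lists share 67 barcodes. They were not used, and each matrix was read under its own label. If the matrices and not the lists were exchanged, every direction given below would be reversed. As labelled, smooth muscle markers in the members summed to 3227 CPM in Control and 644 CPM in AngII+HS, and macrophage markers to 59.9 CPM in Control and 517 CPM in AngII+HS (CPM, counts per 1e6 UMIs). Which of the files were exchanged was not tested.

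Postcapillary venules and small veins are the main site where leukocytes leave the blood. Their endothelium stores P-selectin and von Willebrand factor in Weibel-Palade bodies, and after activation by cytokines it presents E-selectin, ICAM-1 and VCAM-1. It also carries the atypical chemokine receptor Ackr1, which binds chemokines without signalling through G proteins. Nr2f2 (COUP-TFII) is a transcription factor that maintains venous identity and restrains the arterial program. The aorta is an artery, and veins run in its outer wall (the vasa vasorum) and in attached tissue.

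The members held 550942 UMIs in Control, with a median of 5019 per cell, and 1730251 UMIs in AngII+HS, with a median of 5182 per cell. All cells past the filter had a median of 7576 UMIs in Control and 3550 in AngII+HS, so the members were closer in depth than the libraries. The median mitochondrial share of a member's UMIs was 2.65% in Control and 1.33% in AngII+HS. Levels are given as CPM, a gene's share of the UMIs summed over the members of a library, scaled to 1e6 UMIs. T and B cells (164 in Control and 1814 in AngII+HS) are given library by library beside them as a gauge of free RNA, since they should lack endothelial transcripts. For genes that T and B cells express themselves, their level is no gauge of free RNA.

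The genes that chose the members are described without a comparison. Selp had a median of 17 UMIs per cell in Control (range 2 to 144) and of 16 in AngII+HS (2 to 105). Lrg1, a secreted glycoprotein of activated endothelium, was found in 84.9% and 90.8% of the members, the metalloprotease Tll1 in 57.0% and 67.8%, and Nr2f2 in 82.8% and 76.6%. All 3 were found in 40 Control and 132 AngII+HS members, and Lrg1 alone brought in 8 and 23 cells. At the border of the rule, 6 Control and 22 AngII+HS members held exactly 2 Selp UMIs, while 23 and 40 cells that met every other condition held 1 and stayed out. A single UMI of Lrg1, Tll1 and Nr2f2 was held by 5 and 17 members, and 30 and 43 cells stayed out with none.

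Several markers outside the rule followed the venous label, though not every venous marker is set beside both other endothelial sets here. Ackr1 stood at 209 CPM in Control and 613 CPM in AngII+HS members, against 3.19 and 40.1 CPM in capillary and 0 and 4.62 CPM in arterial endothelial cells. The co-receptor Nrp2 (597 and 449 CPM), the water channel Aqp1 (1695 and 962 CPM) and the diaphragm protein Plvap (1020.1 and 965 CPM) were abundant, and all were lower in arterial cells (11.6 and 25.9 CPM, 48.5 and 20.3 CPM and 153 and 137 CPM). Lipoprotein lipase (Lpl), a capillary gene here, was at 14.5 and 11.6 CPM in members and 894 and 364 CPM in capillary cells. Other capillary genes were present, with Fabp4, a fatty acid carrier, at 5685 and 5924 CPM in members and 24307 and 27367 CPM in capillary cells, and Car4 at 1.82 and 61.8 CPM in members. The arterial connexin Gja4 was at 16.3 and 12.1 CPM in members and 278 and 373 CPM in arterial cells.

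Some arterial genes were present all the same. The 15 arterial markers summed to 4265 CPM in Control and 2267 CPM in AngII+HS in members, against 22954 CPM in Control and 22153 CPM in AngII+HS in arterial cells. The rule limits 2 of these markers in members, and arterial cells were chosen by them, so part of this gap was set by the choice of cells. The most abundant of the 15 was Mgp, an inhibitor of calcification, at 1684 CPM in Control and 1207 CPM in AngII+HS members, 8039 and 8241 CPM in arterial cells and 1470 and 894 CPM in T and B cells. Cytl1, a small secreted protein that was abundant in arterial cells (6883 and 2684 CPM), differed more between the libraries. It stood at 808 CPM in Control and 104 CPM in AngII+HS members and was found in 66.7% of the Control but 16.1% of the AngII+HS members. Control members thus included a larger share of cells with Cytl1, and some results below are also given for members with at most 1 Cytl1 UMI.

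**Figure D1:**
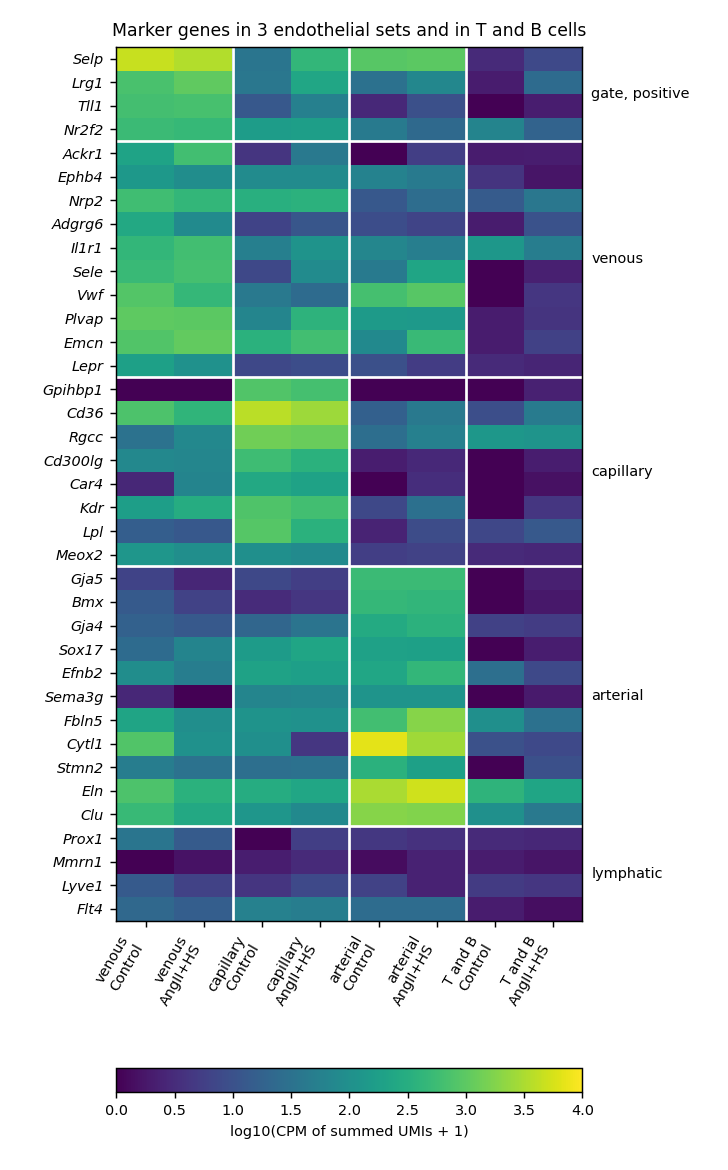
Heat map of marker levels as log10(CPM + 1) of summed UMIs (colour scale), with genes in rows grouped by the cell type they mark and venous, capillary and arterial endothelial cells and T and B cells of each library in columns. Ackr1, Lepr and Adgrg6 stand at no more than 40.1 CPM outside the venous columns, Gpihbp1 is 0 in the venous columns by the rule, and Cytl1 is highest in arterial cells and visible in Control venous cells.

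The members made up 0.824% (0.665 to 1.01) of all Control cells and 1.06% (0.938 to 1.20) of all AngII+HS cells. Of blood endothelial cells, those that met the endothelial, lymphatic, leukocyte and fibroblast conditions, the members were 93 of 1518 in Control, 6.13% (4.97 to 7.45), and 261 of 1661 in AngII+HS, 15.7% (13.99 to 17.6). Control endothelial cells were deeper, with a median of 7363 UMIs against 4077. A deep cell reaches the lower limits of the rule more easily, and also fails its limits of 0 or 1 UMIs more easily. Cells were also thinned to 1000 UMIs before the rule, which left out cells with fewer (10560 of 11288 Control and 22721 of 24560 AngII+HS cells were kept). The members were then 64 of 883 blood endothelial cells in Control, 7.25% (5.63 to 9.16), and 148 of 1434 in AngII+HS, 10.3% (8.79 to 12.01). The log2 ratio of these shares was 0.51 (0.08 to 0.96), against 1.36 without thinning. The gap was thus smaller after thinning, as the AngII+HS share fell and the Control share rose, and the cause was not tested. Over the same denominator without thinning, capillary cells were 10.01% (8.55 to 11.6) in Control and 25.7% (23.6 to 27.9) in AngII+HS, and arterial cells 27.1% (24.9 to 29.4) and 21.3% (19.4 to 23.4), so that capillary cells, too, had a larger share in AngII+HS. Thinned shares of all cells were 0.606% and 0.651%. With stricter limits on genes of other cell types, smooth muscle included, blood endothelial cells without thinning numbered 629 in Control and 1012 in AngII+HS. The members were then 45 of them in Control (7.15%) and 158 in AngII+HS (15.6%). In tissue taken apart by enzymes, a change in a share cannot be told apart from a change in how well a cell type was released.

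A set of 12 genes stood out in venous cells over both other endothelial sets in both libraries. They were named by the lower of the 2 libraries' ratios over the higher of the capillary and arterial levels, and the choice itself made them higher in venous cells, by over 2-fold in each library. They take in receptors, enzymes and secreted proteins. Among the receptors, Ackr1 was followed by the leptin receptor Lepr at 187 CPM in Control and 106 CPM in AngII+HS, the oxidized LDL receptor Olr1 at 528 CPM in Control and 246 CPM in AngII+HS, the adhesion receptor Adgrg6 at 258 CPM in Control and 81.5 CPM in AngII+HS and the interleukin-1 receptor Il1r1 at 441 CPM in Control and 619.6 CPM in AngII+HS. The calcium-binding membrane protein Mctp1 had the most UMIs, at 764 CPM in Control and 1805 CPM in AngII+HS, although 1 cell held 23.5% of its Control UMIs. The recycling protein Ehd3 stood at 102 CPM in Control and 399.9 CPM in AngII+HS. Among secreted proteins, the granulocyte growth factor Csf3 stood at 465 CPM in Control and 558 CPM in AngII+HS and the lipopolysaccharide-binding protein Lbp at 119.8 CPM in Control and 43.9 CPM in AngII+HS. The remaining genes were Adarb2 (105 and 32.4 CPM), Fam174b (98.0 and 41.6 CPM) and Cmah (36.3 and 91.9 CPM), and Cmah was higher in T and B cells (162 and 113 CPM). These genes were venous-enriched in both libraries, and between the libraries they differed in both directions.

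Between the libraries, Ackr1 was higher in AngII+HS with a log2 ratio (AngII+HS over Control) of 1.55 (interval 1.27 to 1.84), Ehd3 with 1.98 (interval 1.58 to 2.396) and Mctp1 with 1.24 (interval 1.09 to 1.39). Adgrg6 was lower, with -1.66 (interval -2.01 to -1.31), as were Lbp (-1.45) and Olr1 (-1.105). Csf3 (0.26) and Il1r1 (0.49) stayed under 2-fold. In members with at most 1 Cytl1 UMI, Ackr1 stood at 334 and 661 CPM and Mctp1 at 1693 and 1948 CPM, both under 2-fold.

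Across all genes with at least 50 UMIs over the members of both libraries, 6176 were compared, and those of the rule were left out. Of them, 786 were at least 2-fold higher in AngII+HS (12.7%) and 403 at least 2-fold lower (6.53%), with a median log2 ratio of 0.10 over all. Of the 6176, 36 had 0 UMIs in Control and 0 had none in AngII+HS, and Control members held fewer UMIs. These shares are the background for every count of list members below. A call means a 2-fold difference between 2 libraries and is not a test.

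**Figure D2:**
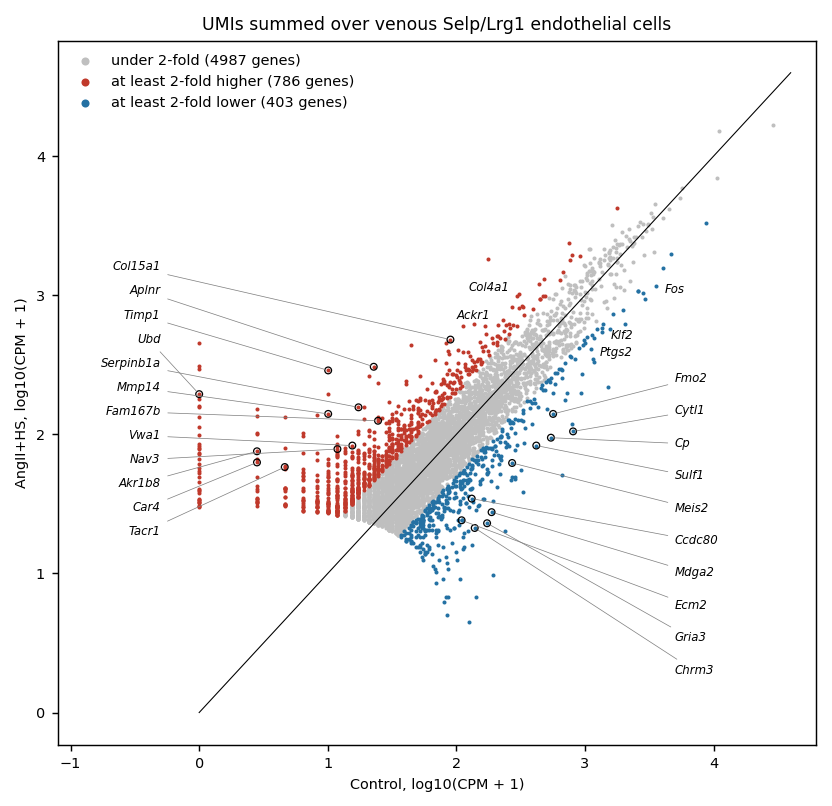
Each point is 1 of the 6176 genes, with its level in Control members on the x axis and in AngII+HS members on the y axis, both as log10(CPM + 1). Grey points lie within 2-fold, 786 are higher and 403 lower in AngII+HS, and the labels mark genes named in the text, with Ubd on the left edge at 0 in Control.

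Among genes seen in at least 10% of the members of a library and at least 3 times over T and B cells, the 12 highest ratios belonged to the following genes. Ubd (FAT10), a ubiquitin-like modifier induced by inflammatory cytokines, had 0 UMIs in Control and 335 UMIs (194 CPM) in AngII+HS members. Against a floor of 3 UMIs in the Control library it was at least 35.6-fold higher, and with counting error in both libraries the exact lower limit of its log2 ratio was 4.85. It was found in 20.3% of the AngII+HS members. Timp1, an inhibitor of matrix metalloproteinases, stood at 9.08 CPM in Control and 287 CPM in AngII+HS, a log2 ratio of 4.98 (interval 3.75 to 6.61). The membrane metalloproteinase Mmp14 stood at 9.08 CPM in Control and 139 CPM in AngII+HS, a log2 ratio of 3.94 (interval 2.70 to 5.58). A protease and a protease inhibitor were thus both higher.

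The apelin receptor Aplnr, a marker of angiogenic and venous endothelium, stood at 21.8 CPM in Control and 305 CPM in AngII+HS, a log2 ratio of 3.81 (interval 2.99 to 4.77). Collagen XV (Col15a1), a basement membrane collagen, stood at 88.9 CPM in Control and 479 CPM in AngII+HS, a log2 ratio of 2.43 (interval 2.01 to 2.88). The protease inhibitor Serpinb1a stood at 16.3 CPM in Control and 155 CPM in AngII+HS, a log2 ratio of 3.25 (interval 2.30 to 4.40). Akr1b8, an aldo-keto reductase, had 1 UMI in Control and 129 in AngII+HS, the substance P receptor Tacr1 2 and 99, and the carbonic anhydrase Car4 1 and 107, so the size of these ratios rests on very few Control UMIs. Car4 is a capillary gene here (257 and 203 CPM in capillary cells). The other 3 were Nav3 (10.9 and 77.4 CPM), Vwa1 (14.5 and 82.1 CPM) and Fam167b (23.6 and 124 CPM).

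The 12 lowest ratios held several genes that were abundant in arterial cells. Cytl1 had a log2 ratio of -2.96 (interval -3.21 to -2.70). Cp (ceruloplasmin, a copper-carrying ferroxidase) stood at 543 CPM in Control and 93.6 CPM in AngII+HS, a log2 ratio of -2.54 (interval -2.82 to -2.25). Arterial cells held 668 and 388 CPM of Cp. The heparan sulfate sulfatase Sulf1 stood at 417 CPM in Control and 82.1 CPM in AngII+HS, the transcription factor Meis2 at 270.4 CPM in Control and 61.3 CPM in AngII+HS and the muscarinic receptor Chrm3 at 138 CPM in Control and 20.2 CPM in AngII+HS, and arterial levels of these 3 differed by less than 2-fold between the libraries.

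The monooxygenase Fmo2 was more abundant in Control venous cells than in either other set, and stood at 564 CPM in Control and 139 CPM in AngII+HS, a log2 ratio of -2.02 (interval -2.27 to -1.77). The glutamate receptor subunit Gria3 stood at 172 CPM in Control and 21.96 CPM in AngII+HS, a log2 ratio of -2.97 (interval -3.56 to -2.42). Mdga2, a membrane-anchored adhesion protein, stood at 187 CPM in Control and 26.6 CPM in AngII+HS. Ecm2 (109 and 23.1 CPM) and Ccdc80 (131 and 33.5 CPM) were also among the 12.

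Shares of members with at least 1 UMI were also taken with each cell thinned to 1000 UMIs, so that depth was equal, over the 91 of 93 Control and 256 of 261 AngII+HS members that had as many. Ubd, Timp1, Aplnr, Cytl1 and Cp had been chosen for extreme ratios in these same cells, so their shares are a description and no further support for the ratios. Ackr1 was found in 17.6% (10.4 to 26.98) of Control and 34.8% (28.9 to 40.9) of AngII+HS members. Ehd3 was found in 3.30% (0.685 to 9.33) of Control and 29.3% (23.8 to 35.3) of AngII+HS members. Aplnr was found in 3.30% (0.685 to 9.33) of Control and 15.6% (11.4 to 20.7) of AngII+HS members. Timp1 was found in 1.10% (0.0278 to 5.97) of Control and 15.6% (11.4 to 20.7) of AngII+HS members, and in 0.610% and 3.67% of the T and B cells. Ubd was found in 0% (0 to 3.97) of Control and 10.2% (6.74 to 14.5) of AngII+HS members. T and B cells held it in 0% and 0.0556%. In the other direction, Cytl1 was found in 45.1% (34.6 to 55.8) of Control and 8.59% (5.46 to 12.7) of AngII+HS members and Cp in 34.1% (24.5 to 44.7) of Control and 8.98% (5.78 to 13.2) of AngII+HS members. E-selectin (Sele), the cytokine-induced selectin, was found in 27.5% (18.6 to 37.8) of Control and 35.9% (30.1 to 42.1) of AngII+HS members, with overlapping intervals.

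**Figure D3:**
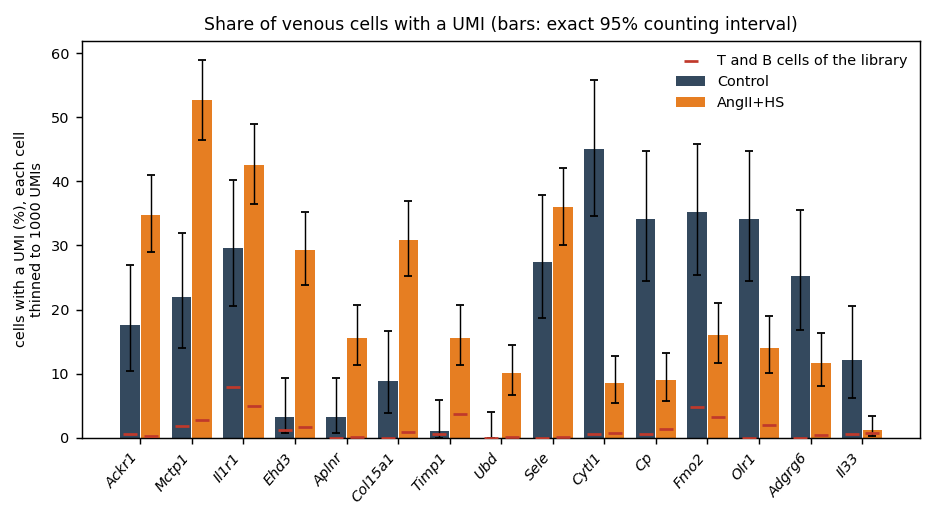
Percent of members with at least 1 UMI of each gene (y axis) after each cell with at least 1000 UMIs was thinned to 1000, with a bar for Control and for AngII+HS, whiskers as exact 95% intervals for counting error, and red ticks for the T and B cells of each library. Ackr1, Ehd3, Aplnr and Timp1 are higher in AngII+HS and Cytl1 and Cp in Control, several of them chosen for their ratio in these cells, while the intervals of Sele overlap.

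The lists of genes by function are taken in the order of what venous endothelium does, beginning with leukocyte traffic. Of 13 leukocyte adhesion genes compared, 1 was at least 2-fold higher and 0 were lower, with a median log2 ratio of 0.09 beside 0.10 over all genes. This median was -0.69 with free RNA subtracted and -0.11 with stricter limits on genes of other cell types. The higher gene was Alcam, at 74.4 CPM in Control and 229 CPM in AngII+HS, but T and B cells held more (434 and 443 CPM). E-selectin (Sele) stood at 506 CPM in Control and 648 CPM in AngII+HS, Vcam1 at 1127 CPM in Control and 737 CPM in AngII+HS and Icam1 at 1884 CPM in Control and 1143 CPM in AngII+HS. The main adhesion receptors for leukocytes thus differed by less than 2-fold. Of 16 NF-kB targets and feedback genes, none passed 2-fold in either direction (median -0.17), with the inhibitor Nfkbia at 3342 and 3000.1 CPM and the suppressor Socs3 at 909 and 548 CPM. The NF-kB median was -0.71 with free RNA subtracted and 0.07 with equal weight per cell.

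Of 15 chemokine and cytokine genes, 5 were higher and 3 lower (median 0.27, beside 1.53 in capillary and 1.95 in arterial cells). This median was -0.57 with free RNA subtracted, 0.64 with stricter limits on genes of other cell types and 0.84 in members with at most 1 Cytl1 UMI. Ackr1 was among the higher, and so were the neutrophil attractant Cxcl2 (174 and 1811 CPM), the monocyte attractants Ccl2 (81.7 and 456 CPM) and Ccl7 (1.82 and 134 CPM) and the interferon-induced Cxcl10 (92.6 and 273 CPM). T and B cells held 74.0 and 2608 CPM of Cxcl2, 24.0 and 398 CPM of Ccl2 and 86.9 and 236 CPM of Ccl7, close to or above the member levels in AngII+HS, and the part of free RNA in these 3 was not tested. The lower genes were the alarmin Il33 (81.7 and 12.1 CPM), the macrophage growth factor Csf1 (223 and 97.1 CPM) and Cxcl12 (105 and 51.4 CPM). Il33 was found in 12.1% (6.19 to 20.6) of Control and 1.17% (0.242 to 3.39) of AngII+HS members after thinning. Of 15 cytokine receptors, 1 was higher and 0 were lower, and the higher one was Ifnar1 (18.2 and 50.9 CPM), again with more in T and B cells (74.9 and 101 CPM).

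Antigen presentation and interferon genes followed. Of 20 MHC genes, 6 were higher and 1 lower (median 0.43), but 4 of the 6 were the class II genes Cd74 (39.9 and 240.4 CPM), H2-Aa, H2-Ab1 and H2-Eb1, which T and B cells held at far higher levels (1146 and 2674 CPM of Cd74). Class I H2-K1 stood at 1289 CPM in Control and 1725 CPM in AngII+HS. Of 14 interferon response genes, Isg15 (30.9 and 85.0 CPM) and Oasl2 (10.9 and 35.3 CPM) were higher and 0 lower. Of 8 complement and platelet genes, C3 (5.45 and 32.9 CPM), Cfb (23.6 and 48.0 CPM) and Pf4 (7.26 and 138 CPM) lay above 2-fold before UMIs were added, with 2 past it after.

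Genes that blood flow keeps high in endothelium included several at lower levels in AngII+HS. Of 12 shear and nitric oxide genes, 0 were higher and 6 lower, with a median log2 ratio of -0.92, beside -0.37 in capillary and -0.61 in arterial cells. The flow-induced transcription factor Klf2 stood at 1349 CPM in Control and 545 CPM in AngII+HS, a log2 ratio of -1.31 (interval -1.45 to -1.17), and Klf4 at 991 CPM in Control and 476 CPM in AngII+HS. Caveolin 1 (Cav1) stood at 895 CPM in Control and 418 CPM in AngII+HS, and the cyclooxygenases Ptgs1 and Ptgs2 at 192 and 89.0 CPM and 1111 and 411 CPM. The prostacyclin synthase Ptgis was the sixth, at 78.0 and 14.4 CPM, with more in T and B cells (121 and 36.7 CPM). The nitric oxide synthase Nos3, at 151 CPM in Control and 90.7 CPM in AngII+HS, did not pass 2-fold. In members with at most 1 Cytl1 UMI the list's median was -0.45, and Ptgs2 stood at 269 and 329 CPM, in the other direction.

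Immediate early genes, which switch on within minutes of a stimulus and also during tissue digestion, were likewise more often lower. Of 19 genes on a list of immediate early and heat shock genes, 0 were higher and 7 lower (median -0.72). Fos stood at 3539 CPM in Control and 1162 CPM in AngII+HS, Jun at 1984 CPM in Control and 783 CPM in AngII+HS, Egr1 at 2038 CPM in Control and 622 CPM in AngII+HS and Atf3 at 1251 CPM in Control and 572 CPM in AngII+HS. T and B cells also held less in AngII+HS, with 1913 and 429.9 CPM of Fos and 1068 and 242 CPM of Egr1. The part of handling in these levels was not tested.

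Short promoter windows are printed for Klf2, Jun and Atf3, the genes of these lists whose promoter (250 bases before to 50 after the start, RefSeq, GRCm38.p6) holds the 10-base MEF2 motif, since MEF2 factors are known activators of Klf2 and Jun. The capitals mark the motif and the letters run 5′ to 3′ on the strand of the gene. The Klf2 window lies at chr8:72318934-72318963 on the plus strand, with the motif 118 bases before the start. The Jun window lies at chr4:95052236-95052265 on the minus strand (33 bases before), and the Atf3 window at chr1:191183336-191183365 on the minus strand (22 bases before).
Klf2: tataccgcggCTAAATTTAGgctgagcccg
Jun: acatcatgggCTATTTTTAGggattgactg
Atf3: tccctggaagCTATTAATAGcattacgtca
The motif was found, on either strand, in 1 of 9 shear and nitric oxide genes with a promoter in the table. It was found in 2 of 15 immediate early and heat shock genes. Among all genes of the table it was found in 172 of 27025 (0.636%), or 183 of 32851 promoters (0.557%). The motif was chosen from several after their counts were seen, and a match describes the letters and does not show binding.

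Genes of the basement membrane formed a further group. Of 22 matrix genes, 7 were higher and 2 lower (median 0.28, beside 0.40 in capillary and 0.58 in arterial cells, and -0.07 in venous cells with free RNA subtracted). The collagen IV chains Col4a1 and Col4a2, the core of every basement membrane, stood at 294 and 987 CPM and 165 and 605 CPM, with log2 ratios of 1.75 (interval 1.51 to 1.99) and 1.87 (interval 1.56 to 2.20). With them were Col15a1, Col18a1 (187 and 495 CPM), the laminin chain Lamb1 (27.2 and 120.2 CPM), the collagen-binding protein Sparc (677 and 1476 CPM) and Igfbp7 (797 and 1959 CPM). In T and B cells Col4a1 was lower in AngII+HS (154 and 46.3 CPM), the opposite direction. The lower genes were the inhibitor Timp3 (1136 and 514 CPM) and the proteoglycan Bgn (946 and 271 CPM).

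Growth and vessel-forming signals were split. Of 13 VEGF and angiopoietin genes, Aplnr and the Tie2 ligand Angpt2 (38.1 and 150.3 CPM) were higher, and the phosphatase Ptprb (1666 and 732 CPM), which restrains Tie2, was lower. The receptor Kdr stood at 172 CPM in Control and 302 CPM in AngII+HS and Flt1 at 1144 CPM in Control and 1113 CPM in AngII+HS. Of 9 Notch genes, the glycosyltransferase Mfng (14.5 and 49.7 CPM) was higher and 0 were lower. Of 23 BMP and TGF-beta genes, 0 were higher and 5 lower (median -0.31). They were the endothelial BMP receptor Acvrl1 (129 and 54.9 CPM), the ligands Bmp6 (116 and 37.0 CPM) and Tgfb2 (69.0 and 7.51 CPM), and the latency proteins Ltbp1 (131 and 40.5 CPM) and Ltbp4 (457 and 214 CPM). Tgfb2 and Ltbp1 were at least as high in T and B cells (97.9 and 11.2 CPM and 185 and 50.03 CPM).

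Of 26 endothelial transcription factors, 2 were higher and 5 lower (median -0.42). Sox4 stood at 131 CPM in Control and 305 CPM in AngII+HS and Sox17, an arterial factor, at 23.6 CPM in Control and 62.4 CPM in AngII+HS. Meis2, Gata6 (107 and 39.3 CPM), Foxc1 (199.7 and 81.5 CPM), Tal1 (132 and 56.6 CPM) and Foxp1 (1029 and 498 CPM) were lower. Sox18, the factor the study followed, stood at 105 CPM in Control and 102 CPM in AngII+HS, a log2 ratio of -0.05 (interval -0.49 to 0.40).

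Among the 23 lists by function, cell cycle genes gave the highest median, 2.08, beside 1.28 in capillary and 0.40 in arterial cells, with 12 of 13 higher and 0 lower. The replication clamp Pcna stood at 63.5 CPM in Control and 153 CPM in AngII+HS, the helicase subunit Mcm3 at 16.3 CPM in Control and 72.8 CPM in AngII+HS and the tubulin regulator Stmn1 at 18.2 CPM in Control and 127 CPM in AngII+HS. Top2a, a topoisomerase of dividing cells, had 0 UMIs in Control and 104 in AngII+HS, at least 11.04-fold higher against a floor of 3 UMIs, with an exact lower limit of the log2 ratio of 3.14. Part of the signal came from few cells. At least 3 UMIs of 7 mitosis genes were found in 0 of 93 Control members (upper limit 3.89% of cells with as many UMIs) and 17 of 261 AngII+HS members (6.51%, 3.84 to 10.2), beside 6 of 427 capillary and 5 of 354 arterial AngII+HS cells. Without these cells the list's median was 1.01. T and B cells, which divide, held such cells at 3.66% and 4.30%.

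Of 18 glycolysis and hypoxia genes, 6 were higher and 1 lower (median 0.68, beside 0.17 in capillary and -0.09 in arterial cells). This median was 2.18 in venous cells with free RNA subtracted. The glycolytic enzymes Gapdh (241 and 612 CPM), Pgk1 (43.6 and 129 CPM) and Pkm (111 and 391 CPM) were among the higher, and hexokinase Hk2 (47.2 and 19.1 CPM) was lower. In T and B cells Pkm stood at 106 and 202 CPM.

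**Figure D4:**
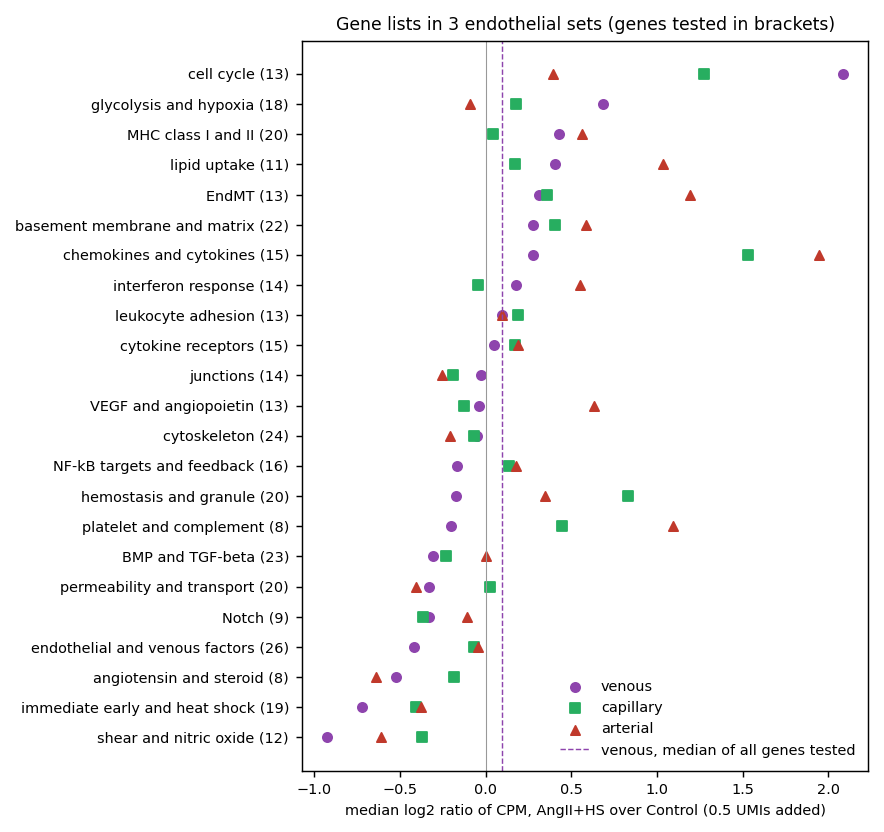
Median log2 ratio (AngII+HS over Control, x axis) of each of 23 gene lists in venous, capillary and arterial endothelial cells, with the dashed line at the median of all compared genes in venous cells. Cell cycle and glycolysis lists lie highest in venous cells, and the shear and nitric oxide and the immediate early and heat shock lists lowest.

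Barrier, clotting and transport genes followed. Of 20 hemostasis and granule genes, 3 were higher, the clotting inhibitor Tfpi (30.9 and 124 CPM), the granule protein Cd63 (159.7 and 395 CPM) and Angpt2, and 1 was lower, Serpinb6b (85.3 and 28.3 CPM). Von Willebrand factor (Vwf) stood at 853 CPM in Control and 453 CPM in AngII+HS and coagulation factor V (F5) at 481 CPM in Control and 246 CPM in AngII+HS, neither past 2-fold. Of 20 permeability genes, Ehd3 was higher and the caveolar genes Cav1, Cav2 (142 and 62.4 CPM) and Cavin2 (662 and 251 CPM) were lower. Of 14 junction genes, 0 were higher and Cgnl1 (76.2 and 25.4 CPM) and Pard3 (50.8 and 14.4 CPM) lower. Of 11 lipid uptake genes, Lipg (3.63 and 30.1 CPM), Angptl4 (3.63 and 34.7 CPM) and Plin2 (19.97 and 58.4 CPM) were higher, and the fatty acid carrier Fabp4 stood at 5685 CPM in Control and 5924 CPM in AngII+HS. Of 8 angiotensin and steroid genes, 0 were higher and Nr3c2 (78.0 and 38.7 CPM) and Zbtb16 (109 and 23.1 CPM) lower, and of 24 cytoskeleton genes 3 were higher and 2 lower.

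Of 13 genes of endothelial-to-mesenchymal transition, 3 were higher (S100a4, Tgfbi and Cd44) and 3 lower (Acta2, Tagln and Fn1). T and B cells of AngII+HS held more of each of these 6 than the members did, with Acta2 at 1499 and 218 CPM in members and 2978 and 764 CPM in T and B cells.

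Markers of other cell types moved with the libraries. The 5 smooth muscle markers compared were all lower in AngII+HS members, with a sum of 3227 CPM in Control and 644 CPM in AngII+HS (T and B cells 5966 and 1525 CPM). The most abundant was Acta2 in Control and Tagln in AngII+HS. Pericyte markers summed to 906 CPM in Control and 191 CPM in AngII+HS (T and B cells 1467 and 286 CPM), led by Rgs5 (789.6 and 118 CPM). These sums were lower in the members than in T and B cells of each library, and moved in the same direction.

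Leukocyte and platelet markers went the other way. Macrophage markers summed to 59.9 CPM in Control and 517 CPM in AngII+HS (T and B cells 73.9 and 1012 CPM), with 4 of 4 compared higher and Lyz2 the most abundant (19.97 and 262 CPM). Neutrophil markers summed to 14.5 CPM in Control and 379 CPM in AngII+HS (T and B cells 8.99 and 1225 CPM), led by S100a9 (9.08 and 195 CPM), with Cxcr2 and Csf3r at 0 in Control. Platelet markers summed to 14.5 CPM in Control and 157 CPM in AngII+HS (T and B cells 5.996 and 298 CPM), led by Pf4. Fibroblast markers summed to 339 CPM in Control and 391.9 CPM in AngII+HS (T and B cells 425 and 603 CPM), and erythroid markers to 18.2 CPM in Control and 19.1 CPM in AngII+HS (T and B cells 21.99 and 551 CPM), with Alas2 at 0 in both. Lymphatic markers summed to 70.8 CPM in Control and 166 CPM in AngII+HS (T and B cells 17.0 and 45.6 CPM), led by Prox1 in Control and Ccl21a in AngII+HS, with Ccl21a, Pdpn and Mmrn1 at 0 in Control. Prox1 and Mmrn1 are limited in members by the rule, and the fibroblast list holds 1 gene of the rule. Of the 194 Ccl21a UMIs in AngII+HS members, 104 and 87 were in 2 cells. Schwann (1.82 CPM in Control and 2.89 CPM in AngII+HS) and mesothelial markers (0 CPM in Control and 0.578 CPM in AngII+HS) were near 0. T and B cell markers were near 0 in members, at 3.63 CPM in Control and 6.94 CPM in AngII+HS (T and B cells 971 and 1324 CPM). Endothelial markers summed to 4737 CPM in Control and 4858 CPM in AngII+HS, venous markers to 11555 CPM in Control and 10790.3 CPM in AngII+HS and capillary markers to 6912 CPM in Control and 6968 CPM in AngII+HS, and these lists hold genes of the rule. The part of free RNA from these cell types in the ratios was not tested.

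The Control members were a mixture by Cytl1. At least 2 Cytl1 UMIs were held by 50 of 93 Control members and by 29 of 261 AngII+HS members, and this division was chosen after its values were seen. Control members with Cytl1 held 802 CPM of Cp, while those with at most 1 Cytl1 UMI held 182 CPM. Mctp1 had the opposite pattern, with 96.7 CPM in the former and 1693 CPM in the latter. The venous receptor Nrp2 was equal in both, at 596 and 599 CPM, but other venous markers differed between these Control parts. Ackr1 (119 and 334 CPM), Lepr (128 and 269 CPM) and Il1r1 (368 and 543 CPM) were lower with Cytl1. Vwf (1064 and 560 CPM), Adgrg6 (340 and 143 CPM), Plvap (1117 and 886 CPM) and Sele (555 and 438 CPM) were higher.

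In the 43 Control and 232 AngII+HS members with at most 1 Cytl1 UMI, the 24 genes named for their ratio kept a difference of at least 2-fold in the same direction, Cytl1 itself being fixed by the division. They were chosen for extreme ratios in cells that include these, which favours this. Mctp1 and Ackr1, in contrast, came to under 2-fold, at the levels given above. Vwf stood at 560.04 and 382 CPM and Vcam1 at 747 and 715 CPM. Procr, the protein C receptor, stood at 187 and 232 CPM, against 414 and 273 CPM in all members. For these genes the size or direction of the difference changed when Cytl1-bearing members were left out. Cytl1 was also lower in AngII+HS in arterial (6883 and 2684 CPM) and capillary cells (97.8 and 3.27 CPM). A fixed limit of 1 Cytl1 UMI may thus leave out different kinds of cells in the 2 libraries, which was not tested.

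**Figure D5:**
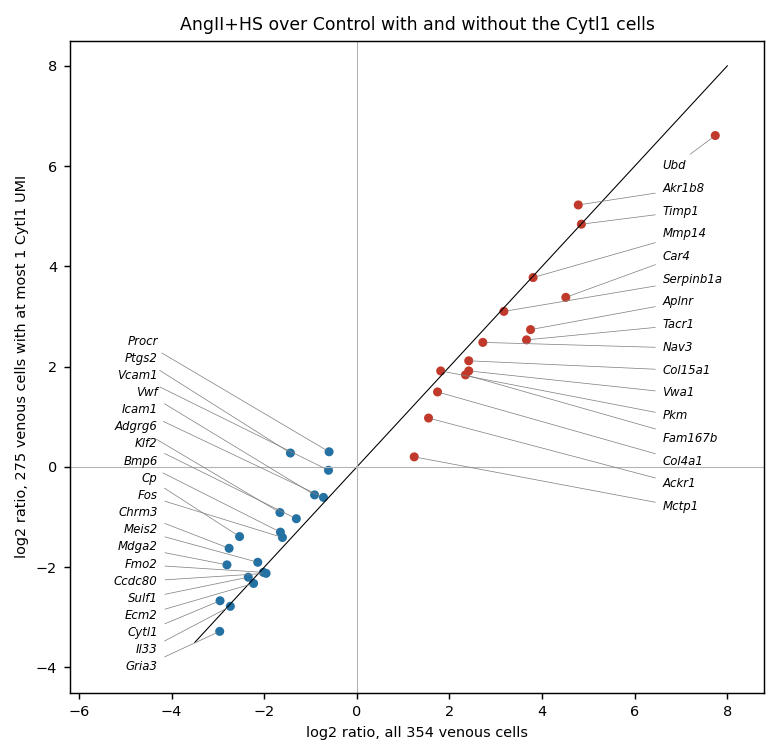
Log2 ratio (AngII+HS over Control) of genes named for their ratio and of further listed genes in all 354 members (x axis) and in the 275 members with at most 1 Cytl1 UMI (y axis), with 1 labelled point per gene and 0.5 UMIs added. Genes on the diagonal have the same ratio in both, and Ptgs2 and Procr are below 0 on the x axis and above 0 on the y axis.

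Set beside capillary and arterial endothelial cells, 10 of the 24 genes named for their ratio had a ratio in venous cells that lay beyond counting error on the same side of both other sets. The genes were chosen for extreme ratios in venous cells, which favours such a difference, and 9 of the 10 are genes lower in AngII+HS, the exception being Serpinb1a. Cytl1 was not among them, since its ratio lay between the other 2. The difference of log2 ratios (venous minus the other set, with its interval) was 1.56 (0.21 to 2.91) against capillary and 3.65 (2.51 to 4.79) against arterial cells for Serpinb1a. For Cp it was -1.51 (-2.23 to -0.79) and -1.75 (-2.05 to -1.45) and for Sulf1 -1.26 (-1.85 to -0.68) and -2.37 (-2.69 to -2.06). In members with at most 1 Cytl1 UMI, Cp stood at 182 CPM in Control and 70.1 CPM in AngII+HS, a smaller gap than in all members. Differences from the other sets were not taken in those cells. For Aplnr the difference was 2.32 (1.43 to 3.21) against capillary cells, and 0.79 (-1.82 to 3.40), an interval that spans 0, against arterial cells, which held 0.376 and 4.16 CPM. For Col15a1 the interval against capillary cells spanned 0, at -0.05 (-0.65 to 0.55), and Col15a1 stood at 47.8 and 266 CPM there, while the difference from arterial cells was 2.66 (1.74 to 3.59). For Timp1 the difference from arterial cells was 2.54 (1.20 to 3.89), and that from capillary cells, 0.84 (-1.11 to 2.79), spanned 0.

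Genes of activated venules were also seen in the capillary cells of AngII+HS. Capillary cells held 6.38 and 85.5 CPM of Sele in Control and AngII+HS, 3.19 and 40.1 CPM of Ackr1 and 64.8 and 382 CPM of Plvap. The members still held more of each in both libraries, at 506 and 648 CPM, 209 and 613 CPM and 1020.1 and 965 CPM. Shares of cells with these genes rest on where the rule separates the sets, since 28 AngII+HS and 2 Control cells stayed out of the members for a single Gpihbp1 UMI.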

How the data were processed

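Single-cell libraries of the abdominal aorta, 1 of Control and 1 of AngII+HS mice, were analysed from the UMI counts per gene and cell (33696 genes) that the authors deposited without normalization. The matrix headers name Cell Ranger 8.0.1, while the methods give version 7.0. The processing notes name mm10 and the methods GRCm39, so no coordinate was taken from the counts. Seurat 4.0.5 is named in the labels for the study's own clustering, which was not used here.

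The cell filter asked for 500 or more UMIs, 200 or more genes and a mitochondrial share below 20%, and doublets stayed in the main values. Members were found by the rule given in the report. The rule, the lists and the tests were chosen with earlier results of these data known. UMIs were summed per library and gene and given as CPM. Ratios have exact conditional binomial intervals and shares have Clopper-Pearson intervals, both at 95%. Differences of 2 log2 ratios have 95% intervals by a normal approximation, which is rough where a cell set held few UMIs. For calls, medians and differences 0.5 UMIs were added. Genes needed 50 UMIs over both libraries. Genes were named when they had at least 100 UMIs, a UMI in at least 10% of the members of 1 library and 3 times the CPM of T and B cells, taking the 12 highest and 12 lowest ratios and the 12 genes highest over capillary and arterial cells. Of these, 2 genes are counted but not reported here by name. Gate, mitochondrial, ribosomal, Y-linked and unnamed gene models were left out. Capillary cells held at least 1 UMI of Gpihbp1 and at least 3 with Cd36, and arterial cells at least 2 of Gja5 and Bmx with 0 of Gpihbp1. Of the symbols, 26 have 2 gene IDs and were read as the ID with more UMIs. Steps were tested on simulated data. Python 3.11.15, numpy 2.4.6, scipy 1.17.1, pandas 2.3.3, scanpy 1.11.5 (Scrublet), edgeR 4.0.16 (TMM factors) and matplotlib 3.10.9 were used. Alternatives changed the gate, the cell filter, doublets, scaling, free RNA and thresholds. Members split by Cytl1 or by Nrp2 and Aqp1, and members without mitosis cells, were added after seeing the data.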

Additional observations from a re-analysis of the deposited data

Results flagged for a closer look

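Of 404 genes screened, 4 were flagged for a ratio of AngII+HS over Control with 1 direction in venous cells and the opposite direction in both capillary and arterial cells. Chrm3 was not among the 4, although its log2 ratio was -2.76 in venous, 0.001 in capillary and 0.18 in arterial cells. With 1 library per group the difference was not tested, the log2 ratios are given with 0.5 UMIs added, and the intervals cover counting error of the ratio without them. Cxcl12, a chemokine that retains leukocytes and progenitors, had a log2 ratio of -1.04 in venous, 0.16 (0.03 to 0.30) in capillary and 2.82 in arterial cells. Mdga2 had -2.81 in venous, 2.22 in capillary and 0.23 (-0.16 to 0.63) in arterial cells, an interval that spans 0. Mfng, a modifier of Notch receptors, had 1.70 in venous, -0.35 (-0.88 to 0.21) in capillary and -0.30 (-0.71 to 0.09) in arterial cells, and both of these intervals span 0. Olr1, the oxidized LDL receptor, had -1.11 in venous, 2.396 (0.30 to 8.32) in capillary and 0.91 (0.36 to 1.48) in arterial cells, but capillary cells held only 1.06 and 8.18 CPM of it.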

How the results depend on the processing

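No paired analysis was possible because each group is 1 library, and no replicate could be left out. Counts, shares and the cell cycle, shear and nitric oxide, and immediate early and heat shock medians kept their sign. The log2 ratio of the share of all cells had an interval that spanned 0 in several settings. These were doublets left out (-0.07 to 0.70), the stricter gate (-0.02 to 0.73), the looser gate (-0.06 to 0.58) and the gate on thinned cells (-0.33 to 0.55). It stayed above 0 with the stricter cell filter, the gate without Lrg1 and stricter purity. The genes named by ratio or by venous level were chosen for extreme values of the same quantity, so their keeping it says nothing about stability. Medians nearer 0 often changed sign, in 50 of 470 values and in 17 of 30 lists. With free RNA subtracted, chemokines and cytokines changed from 0.27 to -0.57, lipid uptake from 0.40 to -0.40, interferon response from 0.18 to -0.28, basement membrane and matrix from 0.28 to -0.07, leukocyte adhesion from 0.09 to -0.69, cytokine receptors from 0.05 to -0.63 and cytoskeleton from -0.05 to 0.67. With a looser gate, the transition list changed from 0.31 to -0.61 (and to -0.20 with Cytl1 at most 1) and permeability from -0.33 to 0.06. The transition list moved the other way to 3.41 with free RNA subtracted, 0.88 with stricter purity and 0.66 with equal weight per cell. Hemostasis changed from -0.17 to 0.28 with stricter purity, and platelet and complement from -0.20 to 0.14, and to 0.49 with equal weight. Of the list medians, 417 moved little and 69 moved. Counts of genes past 2-fold (786 higher, 403 lower) changed to 1344 and 753 with at least 20 UMIs a gene, to 239 and 133 with at least 200, to 317 and 142 at 3-fold, and to 1869 and 728 with free RNA subtracted, which removed 58.6% of member UMIs in Control and 26.1% in AngII+HS, those of genes that T and B cells express included. The lower count was 612 with a looser gate, 256 with stricter purity and 261 with equal weight per cell. The cell cycle median was 1.45 with the gate on thinned cells, 1.21 with equal weight, 4.39 with free RNA subtracted, 1.73 with 2 UMIs added, 1.60 with Cytl1 at most 1 and 1.01 without mitosis cells. The shear and nitric oxide median was -0.62 with a looser gate, -1.64 with free RNA subtracted and -0.45 with Cytl1 at most 1. The immediate early and heat shock median was -0.39 with equal weight. The log2 ratio of the share of blood endothelial cells (1.36) was 0.51 with the gate on thinned cells and 2.30 with Cytl1 at most 1, and that of all cells (0.37) was 1.31 with Cytl1 at most 1. Apart from settings that change the genes, cells or threshold by construction, the cause was not tested. Depth limits genes with few Control UMIs: 93 cells held 550942 UMIs, so a gene at 0 allows up to 3 UMIs, 5.45 CPM.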

Other observations

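Genes of high endothelial venules, the vessels through which lymphocytes enter lymph nodes, were looked at after their values were seen. Glycam1, a sulfated mucin that binds L-selectin, had 537 UMIs in 24 of 261 AngII+HS members (9.20%) and 0 UMIs in the 93 Control members. A single cell held 438 of these UMIs, the next 23, and 16 cells held at least 2. The 1814 T and B cells of AngII+HS held 1 Glycam1 UMI, the 427 capillary cells 4 and the 354 arterial cells 1. The chemokine Ccl21a had 194 UMIs in 5 members, with 104 and 87 in 2 of them.

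The cell with the most Glycam1 had 6986 UMIs, with 104 of Ccl21a, 11 of Selp, 24 of Lrg1, 14 of Ubd, 1 of Chst4 and 1 of Fut7. Chst4 and Fut7 are enzymes that build L-selectin ligands. The cell with 87 Ccl21a UMIs had 5698 UMIs in all, 6 of Glycam1, 21 of Lrg1, 6 of Ackr1 and 12 of Ubd. Both held 0 UMIs of Prox1, the lymphatic transcription factor, and 0 of the leukocyte gene Ptprc. Over all members of AngII+HS, Chst4 had 3 UMIs, Fut7 3 and Madcam1 4. Control members had 0 UMIs of each. For 0 of 93 cells the exact 95% upper limit is 3.89%, which limits the share of cells with a captured UMI and not the share of cells that express the gene.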
